A study of Mus musculus with 4 samples.

Results

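Fibroblasts, the cells that make the collagen and elastin framework of the lung, were found among lung cells that had been prepared as endothelium for single-cell RNA sequencing. They were chosen by their counts: among cells with 500 or more genes and no more than 10% mitochondrial UMIs (a UMI, or unique molecular identifier, tags 1 captured transcript), a cell was taken as a fibroblast when Col1a1, Col1a2, Col3a1, Dcn and Mfap4 together had 8 UMIs or more, at least 3 of these 5 genes were detected, and Ptprc (CD45, leukocytes) and Epcam (epithelium) had 0 UMIs. The rule found 352 fibroblasts among 23723 cells in 4 libraries, or 1.48%. The libraries came from M3cKO mice on day 7 after PNX (M3cKO PNX), Foxo1cKO mice on day 7 after PNX (Foxo1cKO PNX), wild-type mice also taken at day 7 (WT PNX), and wild-type mice after a sham operation (Sham). PNX stands for pneumonectomy, in which lung tissue is taken out, and cKO for a conditional knockout. The sources used here do not name the gene behind M3, the driver of either knockout, or the age and number of the animals. All 4 libraries are labelled endothelial cells, after bead depletion of CD45-positive leukocytes and bead capture of CD31-positive cells. Each group was 1 library, so no spread between animals was measured and no test was possible, and every 95% interval below covers counting error only.

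Fibroblasts of the lung lie in the alveolar walls and in the sheaths around vessels and airways. They secrete fibrillar collagens, elastin and proteoglycans, and they send growth factors to the epithelium and endothelium beside them. Alveolar fibroblasts are known for Inmt, Npnt, Tcf21 and Wnt2, and adventitial fibroblasts for Pi16, Col14a1, Dcn and C3. After pneumonectomy the remaining lung grows, and new elastin and collagen are laid down as part of that growth.

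The matrices held 9080, 8720, 9266 and 7617 cell barcodes and 26848160, 27320974, 30445999 and 16197681 UMIs in M3cKO PNX, Foxo1cKO PNX, WT PNX and Sham. Pairs of libraries shared between 68 and 111 barcodes, at most 1.27% of the smaller library. Transcripts of the X-inactivation gene Xist were found in 37 of 104 Foxo1cKO PNX and 43 of 150 WT PNX fibroblasts, and in 0 of 63 M3cKO PNX and 0 of 35 Sham fibroblasts. Y-linked transcripts were found in 43, 21, 42 and 16 fibroblasts of M3cKO PNX, Foxo1cKO PNX, WT PNX and Sham. Transcripts of both kinds were thus found among the fibroblasts of Foxo1cKO PNX and WT PNX, and Y-linked ones alone among those of M3cKO PNX and Sham.

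Fibroblasts made up 63 of 5543 cells in M3cKO PNX, or 1.14% (exact Clopper-Pearson interval 0.874 to 1.45%). They made up 104 of 6464 cells in Foxo1cKO PNX, or 1.61% (1.32 to 1.95%). They made up 150 of 6397 cells in WT PNX, or 2.34% (1.99 to 2.75%), against 35 of 5319 cells in Sham, or 0.658% (0.459 to 0.914%). The WT PNX share was the highest and the Sham share the lowest, and the M3cKO PNX interval overlapped those of Foxo1cKO PNX and Sham. These shares follow a selection for another cell type, so they count the fibroblasts that were carried along with endothelium, not the fibroblasts of the lung. They also depend on the other cells of each library. Leukocytes (2 or more Ptprc UMIs, none of Cdh5 or Epcam, under 3 of the 5 genes) were 1211 in M3cKO PNX, 1128 in Foxo1cKO PNX, 915 in WT PNX and 109 in Sham. Endothelial cells, as defined below, were 2341, 3639, 3822 and 4434 in the same order. Cells that carried enough UMIs of the 5 genes but also Ptprc or Epcam were left out, 3, 12, 14 and 2 of them in M3cKO PNX, Foxo1cKO PNX, WT PNX and Sham.

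**Figure D1:**
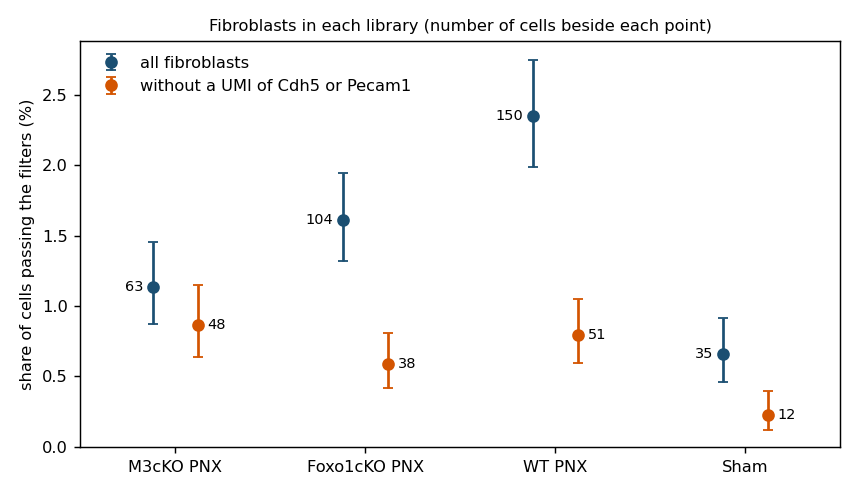
Share of the cells passing the filters that met the fibroblast rule in each library, for all fibroblasts and for those without a UMI of Cdh5 or Pecam1, with exact 95% intervals for counting error and the number of cells beside each point. WT PNX stands highest at 2.34% over all fibroblasts, while the 3 PNX libraries lie at 0.866%, 0.588% and 0.797% once cells with endothelial UMIs are left out.

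The fibroblasts differed in how far they passed the rule. The median fibroblast carried 252 UMIs of the 5 genes in M3cKO PNX, 48 in Foxo1cKO PNX, 46.5 in WT PNX and 15 in Sham. Those with 100 UMIs or more of these genes were 47 of 63 (74.6%) in M3cKO PNX, 29 of 104 (27.9%) in Foxo1cKO PNX, 48 of 150 (32%) in WT PNX and 5 of 35 (14.3%) in Sham. Just inside the threshold, at 8 or 9 UMIs, stood 0, 6, 11 and 8 cells in M3cKO PNX, Foxo1cKO PNX, WT PNX and Sham, and just outside it, at 6 or 7 UMIs, stood 2, 8, 10 and 8. The fibroblasts were also deeper in some libraries, with a median of 7886, 5721, 6164 and 3617 UMIs in the same order.

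The label was checked against genes that the rule had not used. Inmt (ENSMUSG00000003477, GRCm38 chromosome 6, 55170626 to 55175043, minus strand), a methyltransferase that marks mouse lung fibroblasts, had a UMI in 46 of 63 (73.0%), 69 of 104 (66.3%), 102 of 150 (68%) and 25 of 35 (71.4%) fibroblasts of M3cKO PNX, Foxo1cKO PNX, WT PNX and Sham. In endothelial cells of the same libraries it had a UMI in 0.427%, 3.41%, 4.4% and 2.12% of cells. The endothelial cells for this comparison had at least 1 UMI each of Cdh5 and Pecam1, none of Ptprc or Epcam, and under 3 UMIs of the 5 fibroblast genes, and their median depth was 2134, 2573, 2782.5 and 1883 UMIs. Pdgfra, the platelet-derived growth factor receptor of mesenchyme, was found in 79.4%, 51.9%, 54% and 60% of fibroblasts of M3cKO PNX, Foxo1cKO PNX, WT PNX and Sham, against at most 0.549% of endothelial cells in any library. A list of 14 other general fibroblast genes summed to 60918, 30338, 31087 and 33867 CPM (counts per 1000000 UMIs of the summed cells) in fibroblasts and to 3446, 4056, 4518 and 2432 CPM in endothelial cells of the same libraries. Summed over the cells, these markers outside the rule stood higher than in endothelial cells in all 4 libraries. They do not name each cell. In Sham the list of 15 endothelial genes summed to 13181 CPM over all fibroblasts, beside 11201 CPM for the 5 rule genes. In M3cKO PNX 1 cell held 835 UMIs of the smooth muscle list beside 33 of the rule genes. The name fibroblast below means a cell that met the rule.

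Many of these barcodes also carried endothelial transcripts. Cdh5 (VE-cadherin) or Pecam1 (CD31, the surface protein used in the bead selection) had a UMI in 15 of 63 fibroblasts (23.8%, 14 to 36.2%) in M3cKO PNX and in 66 of 104 (63.5%, 53.4 to 72.7%) in Foxo1cKO PNX. It was 99 of 150 (66%, 57.8 to 73.5%) in WT PNX and 23 of 35 (65.7%, 47.8 to 80.9%) in Sham. Most carriers held far more than a stray UMI: 148 of the 352 fibroblasts had 5 UMIs or more of the pair, 19 had 2 to 4, 36 had 1 and 149 had none. Those with 5 or more were 4, 45, 80 and 19 cells in M3cKO PNX, Foxo1cKO PNX, WT PNX and Sham, or 6.35%, 43.3%, 53.3% and 54.3%. To compare them at 1 depth, fibroblasts were thinned to 2000 UMIs, and 9, 17, 21 and 9 shallower ones of M3cKO PNX, Foxo1cKO PNX, WT PNX and Sham were left out. The shares with Cdh5 or Pecam1 were 9.26% of 54 cells in M3cKO PNX, 56.3% of 87 in Foxo1cKO PNX, 69.0% of 129 in WT PNX and 76.9% of 26 in Sham.

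**Figure D2:**
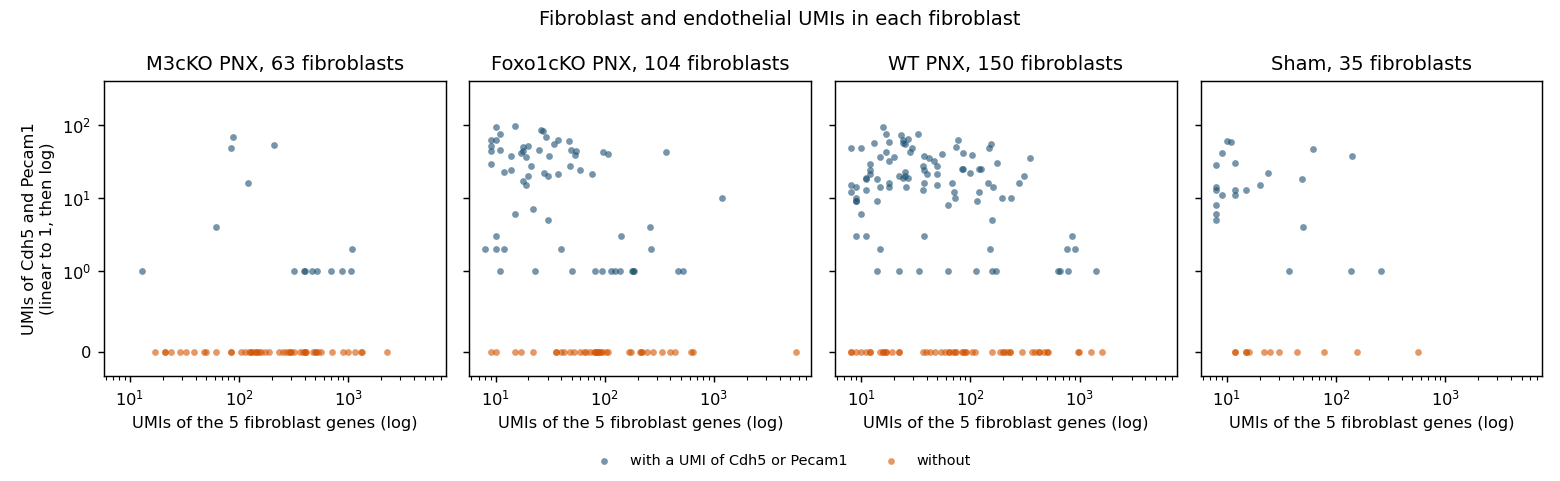
UMIs of the 5 fibroblast genes (log axis) against UMIs of Cdh5 and Pecam1 (linear to 1, then log) in each fibroblast, 1 panel per library, with cells that carry no endothelial UMI in orange. A cloud of cells with 5 or more endothelial UMIs is present in Foxo1cKO PNX (45 cells), WT PNX (80) and Sham (19), and M3cKO PNX has 4 such cells.

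The fibroblasts with endothelial UMIs were deeper than those without. Their median was 11225 UMIs in M3cKO PNX, 7543 in Foxo1cKO PNX, 7662 in WT PNX and 4814 in Sham, against 6478, 3401, 3426 and 1712 UMIs for fibroblasts without them. A list of 15 endothelial genes reached 5375, 17082, 13777 and 16142 CPM in the fibroblasts with Cdh5 or Pecam1, and 369, 667, 663 and 795 CPM in those without, in M3cKO PNX, Foxo1cKO PNX, WT PNX and Sham. The 5 rule genes stood the other way round, at 40045, 11009, 14314 and 6661 CPM with endothelial UMIs and at 49609, 61854, 46096 and 30193 CPM without. The share of mixed barcodes therefore moves with the library. The numbers of genes apart are given below for all fibroblasts and again for a set without the mixed barcodes. Some lists and many single genes are given over all fibroblasts only, mixed barcodes included. The smaller set was the 48, 38, 51 and 12 fibroblasts without a UMI of Cdh5 or Pecam1 (349473, 178454, 239739 and 32723 UMIs), here called unmixed. The name covers Cdh5 and Pecam1 only. A shallow barcode can miss both genes, and transcripts of other cell types remained in these cells, as given below. Unmixed fibroblasts were 0.866% of cells (0.639 to 1.15%) in M3cKO PNX, 0.588% (0.416 to 0.806%) in Foxo1cKO PNX, 0.797% (0.594 to 1.05%) in WT PNX and 0.226% (0.117 to 0.394%) in Sham. For unmixed fibroblasts as a share of all cells, leukocytes included, the intervals of the 3 PNX libraries overlapped, and the Sham interval lay below all of them.

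Transcripts of other cell types were spread unevenly too. Fibroblasts with 3 UMIs or more over the pericyte genes Cspg4, Kcnk3, Cox4i2, Higd1b and Trpc6 were 3 of 63 (4.76%) in M3cKO PNX, 28 of 104 (26.9%) in Foxo1cKO PNX, 35 of 150 (23.3%) in WT PNX and 11 of 35 (31.4%) in Sham. Pericytes are the mural cells of capillaries and share several collagen genes with fibroblasts. The pericyte list of 14 genes stood at 578, 5531, 3725 and 4309 CPM in unmixed fibroblasts of M3cKO PNX, Foxo1cKO PNX, WT PNX and Sham. The alveolar epithelial list of 12 genes reached 143, 563, 4905 and 1574 CPM over all fibroblasts and 91.6, 44.8, 246 and 153 CPM in unmixed ones, in that order of libraries. In WT PNX most of it was Sftpc, the surfactant protein of alveolar type 2 cells, at 3340.02 CPM, and 3 of the 150 fibroblasts held 83.0% of the UMIs of the list. The smooth muscle list stood at 4693, 6192, 4905 and 5654 CPM in unmixed fibroblasts, with less difference between libraries, and the leukocyte list at 57.2, 61.6, 108 and 30.6 CPM.

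**Figure D3:**
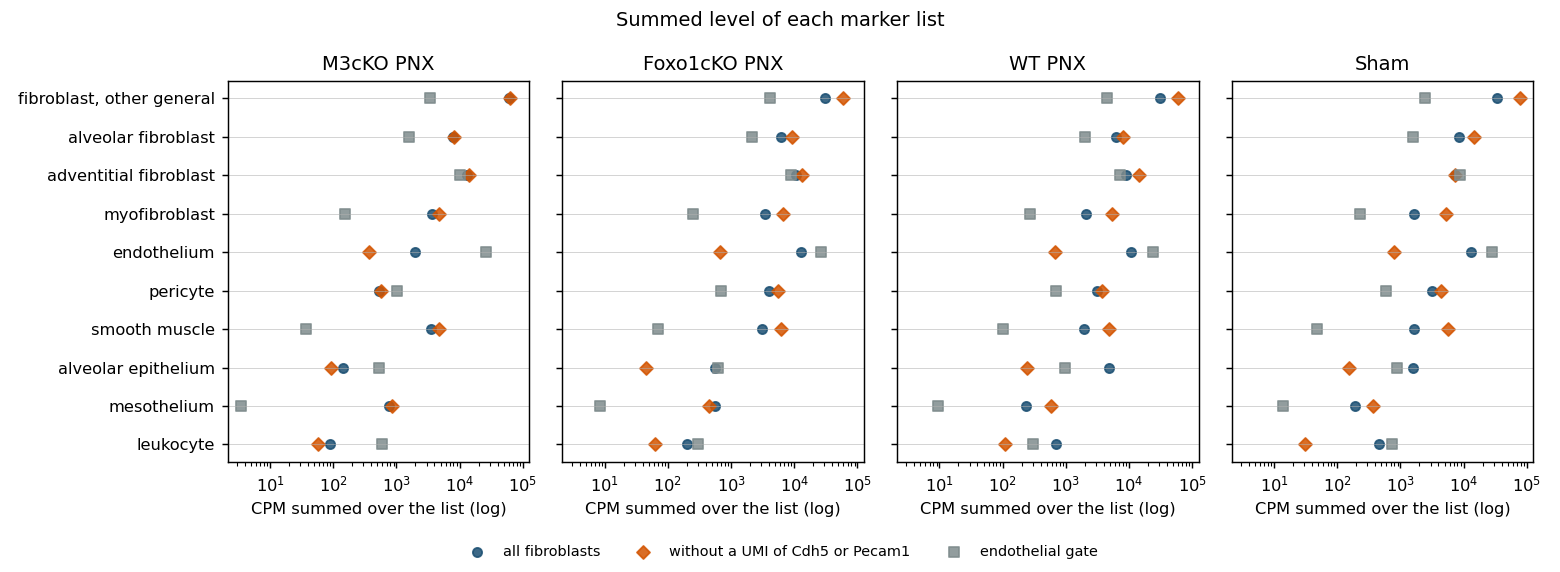
Summed level of 10 marker lists (CPM, log axis) in all fibroblasts, in fibroblasts without a UMI of Cdh5 or Pecam1 and in endothelial cells of each library. The endothelial list stands at 369 to 795 CPM in unmixed fibroblasts and at 23947 to 27820.0 CPM in endothelial cells, and the pericyte list in unmixed fibroblasts is lowest in M3cKO PNX (578 CPM, against 3725 CPM in WT PNX).

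The fibroblasts varied along the alveolar and adventitial axis. With 19 alveolar and 18 adventitial marker genes, more alveolar than adventitial UMIs were counted in 30 of 63 fibroblasts (47.6%, 34.9 to 60.6%) in M3cKO PNX, 80 of 104 (76.9%) in Foxo1cKO PNX, 107 of 150 (71.3%) in WT PNX and 30 of 35 (85.7%) in Sham. Endothelial cells, which are neither, scored as more alveolar in 71.9%, 79.2%, 76.8% and 70.7% of cells in the same order, so the score also reads endothelial transcripts as alveolar. Among unmixed fibroblasts it gave 21 of 48 (43.8%, 29.5 to 58.8%) in M3cKO PNX, 26 of 38 (68.4%, 51.3 to 82.5%) in Foxo1cKO PNX, 27 of 51 (52.9%, 38.5 to 67.1%) in WT PNX and 7 of 12 (58.3%, 27.7 to 84.8%) in Sham, with wide and overlapping intervals. The score is a range and not a type: 16 of the 149 unmixed fibroblasts lay within 2 UMIs of an even count. It also placed unmixed cells that were rich in transcripts of other cell types. In M3cKO PNX 1 such cell, with 835 smooth muscle UMIs, had 28 alveolar and 3 adventitial UMIs. Another there, with 265 mesothelial UMIs, had 12 alveolar and 637 adventitial UMIs. The shares are therefore not shares of fibroblast kinds.

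The split itself used Npnt, Tcf21, Wnt2, Pi16, Col14a1, C3 and Igfbp4, so their levels follow it by construction. Inmt was not in either list. It stood at 2840, 9936, 9151 and 11654 CPM in the more alveolar unmixed fibroblasts of M3cKO PNX, Foxo1cKO PNX, WT PNX and Sham, against 1105, 452, 1666 and 2822 CPM in the more adventitial ones. The alveolar side was the higher in all 4 libraries, and the alveolar level in M3cKO PNX was the lowest of the 4. Over all unmixed fibroblasts Inmt was 2.18-fold lower in M3cKO PNX than in WT PNX (1.98 to 2.41), at 1897 against 4142 CPM.

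The genes of the rule were abundant by construction and are given as levels. Col1a1, a chain of type I collagen, stood at 15604, 7540, 6243 and 2753 CPM over all fibroblasts of M3cKO PNX, Foxo1cKO PNX, WT PNX and Sham, and at 16562, 20924, 14791 and 8282 CPM in unmixed ones. Single cells weigh heavily here: the deepest unmixed fibroblast of Foxo1cKO PNX, with 32590 UMIs and 5601 UMIs of the 5 genes, held 56.9% of its library's unmixed Col1a1, and 1 Sham cell held 63.8%. Dcn, the proteoglycan decorin, was more restricted, with a UMI in 27 of 63 (42.9%), 15 of 104 (14.4%), 28 of 150 (18.7%) and 2 of 35 (5.71%) fibroblasts of M3cKO PNX, Foxo1cKO PNX, WT PNX and Sham. Its level in unmixed fibroblasts was 1843, 2264, 2423 and 214 CPM in the same order. Mfap4, a microfibril protein, was closer between libraries, at 5723, 6523, 4009 and 5929 CPM in unmixed fibroblasts of these libraries.

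Fibroblasts with mitotic transcripts were counted most often in WT PNX. At least 2 UMIs over 10 genes of mitosis, Mki67 and Top2a among them, were found in 2 of 63 fibroblasts (3.17%, 0.387 to 11.0%) in M3cKO PNX, 6 of 104 (5.77%, 2.15 to 12.1%) in Foxo1cKO PNX and 21 of 150 (14%, 8.88 to 20.6%) in WT PNX. Sham had 0 of 35 (0 to 10.0%). Most of these cells were mixed: among unmixed fibroblasts the counts were 1 of 48, 0 of 38, 6 of 51 and 0 of 12 in the same order. In endothelial cells the same count was passed by 4.31% of M3cKO PNX, 8% of Foxo1cKO PNX, 12.4% of WT PNX and 0.654% of Sham cells, and whether the mitotic UMIs of a mixed barcode came from its fibroblast was not tested. Thinned to 2000 UMIs, the shares of fibroblasts were 0 of 54 in M3cKO PNX, 2 of 87 (2.30%) in Foxo1cKO PNX, 10 of 129 (7.75%) in WT PNX and 0 of 26 in Sham.

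The first comparison asks how fibroblasts of WT PNX differed from those of Sham. These libraries also differed in sex-linked transcripts, as given above, and whether the operation caused any of the differences below was not tested. A gene counted as measured when either library reached 100 CPM and 15 UMIs, and as apart when the levels differed by at least 2-fold, a rule of size and not a test. Of 2259 measured genes, 129 (5.71%) were higher and 143 (6.33%) were lower in WT PNX than in Sham, and the median log2 ratio (with 10 CPM added to each level) was −0.06. Among unmixed fibroblasts 362 of 1740 genes (20.8%) were higher and 120 (6.9%) were lower, with a median of 0.17, and there the Sham side was 12 cells with 32723 UMIs. At that total, 15 UMIs stand for well over 100 CPM, so weaker genes could be measured only through WT PNX. The unmixed counts of this comparison, those of gene lists included, therefore lean to higher genes by construction. All 3 comparisons of this study use WT PNX, so their values are not independent of each other.

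Elastin and several collagens were higher in WT PNX. Eln, which encodes elastin (ENSMUSG00000029675, GRCm38 chromosome 5, 134702593 to 134747323, minus strand), stood at 4422 CPM in 124 of 150 WT PNX fibroblasts with a UMI, against 1397 CPM in 20 of 35 Sham fibroblasts, 3.16-fold higher (2.78 to 3.62). In unmixed fibroblasts Eln stood at 9206 CPM in WT PNX and 2261 CPM in Sham, 4.07-fold higher (3.23 to 5.20). A single Sham cell held 48.6% of the unmixed Sham UMIs of Eln. In endothelial cells Eln stood at 732 CPM in WT PNX and 165 CPM in Sham, and in leukocytes at 24.1 CPM in WT PNX and 11.9 CPM in Sham. The interstitial collagen list had 10 measured genes of 17, of which Col1a1, Col1a2 and Col3a1 had served to choose the cells. Of the 7 others, 4 were at least 1.5-fold higher and 0 lower, with a median log2 ratio of 0.97, and 4 and 0 of 7 with a median of 0.95 among unmixed fibroblasts. The background over all fibroblasts was 14.5% of measured genes past the same fold upward and 18.4% downward, and 33.6% and 17.4% among unmixed ones. The other matrix lists had genes on both sides. Elastic fibre genes had 6 of 15 higher and 2 lower without Mfap4, with a median of 0.26, and proteoglycan and matricellular genes 5 of 18 higher and 5 lower without Dcn, with a median of −0.06. Basement membrane genes had 2 of 13 higher and 3 lower, and 1 and 4 among unmixed fibroblasts, with a median of −0.41. Col14a1, a collagen that associates with fibrils, stood at 322 CPM in WT PNX and 88.4 CPM in Sham, 3.64-fold higher (2.18 to 6.58).

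Further genes, several of them for secreted proteins, were higher in WT PNX over all fibroblasts. Fbln2, an elastic fibre protein, stood at 258 CPM in 36 fibroblasts of WT PNX, against 17.7 CPM from 3 UMIs in Sham, a ratio of 14.6 (4.93 to 71.1). Vcan, the proteoglycan versican, stood at 125 CPM in WT PNX and 5.90 CPM from 1 UMI in Sham, a ratio of 21.1 (3.73 to 841). Tnc, the matrix glycoprotein tenascin C, stood at 395 CPM in WT PNX and 47.2 CPM in Sham, 8.37-fold higher (4.21 to 19.5). Sfrp1, a secreted Wnt antagonist, stood at 201 CPM in WT PNX and 29.5 CPM in Sham, 6.82-fold higher (2.88 to 21.2). Ccdc80 and the heparan sulfatase gene Sulf1 were also at least 2-fold higher, as were Cygb (cytoglobin) and Nrgn (neurogranin). Nrgn, a gene known from neurons and platelets, was at 209.5 CPM in WT PNX endothelium and 30.1 CPM in Sham endothelium. The 10 genes named as higher by the fixed rule were all at least 2-fold higher among unmixed fibroblasts as well, with intervals that reached below 1 for Ccdc80 (0.839 to 8.51) and Sulf1 (0.388 to 102). Unmixed cells are part of the same fibroblasts, and 20.8% of all genes measured in them were at least 2-fold higher. Most of the unmixed WT PNX UMIs of Nrgn lay in 1 cell.

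Igf1, Igfbp4 and Hhip were among the higher genes. Igfbp4, like Col14a1 and C3, is on the adventitial marker list, and Hhip is on the myofibroblast list. The adventitial list summed to 8982 CPM in WT PNX and 7310 CPM in Sham over all fibroblasts. Among unmixed ones it summed to 14278 CPM in WT PNX and 7273 CPM in Sham. Whether a different mix of fibroblast kinds lay behind the levels of these genes was not tested. The list of growth factors and secreted ligands had 3 of 11 measured genes (of 41) higher and 2 lower, with a median log2 ratio of 0.09, and 5 and 1 of 11 with a median of 0.01 among unmixed fibroblasts. Beside these and the lists below, 14.5% of all measured genes were higher and 18.4% lower, and 33.6% and 17.4% among unmixed fibroblasts. Igf1, the insulin-like growth factor that mesenchyme sends to epithelium, stood at 223 CPM in 55 fibroblasts of WT PNX and 47.2 CPM in 4 fibroblasts of Sham, 4.72-fold higher (2.36 to 11.1). In unmixed fibroblasts Igf1 stood at 538 CPM in WT PNX and 91.7 CPM, from 3 UMIs, in Sham, a ratio of 5.87 (1.96 to 28.8). Igfbp4, which binds insulin-like growth factors (ENSMUSG00000017493, GRCm38 chromosome 11, 99041244 to 99054392, plus strand), stood at 1004 CPM in WT PNX and 277 CPM in Sham, 3.63-fold higher (2.71 to 4.96). Its unmixed levels were 2532 CPM in WT PNX and 153 CPM in Sham, a ratio of 16.6 (7.06 to 51.2), with 38.9% of the WT PNX UMIs in 1 cell. Of 7 measured genes of the IGF list (of 14), 4 were at least 1.5-fold higher and 1 was lower, with a median log2 ratio of 0.61, and 3 and 1 with a median of 0.25 among unmixed fibroblasts. Hhip, an antagonist of hedgehog ligands, stood at 121 CPM in 15 fibroblasts of WT PNX and had no UMI in Sham, so it was at least 6.83-fold higher against a floor of 3 UMIs over the Sham fibroblasts. The hedgehog list had 3 measured genes of 10 over all fibroblasts, 2 of them higher, and 5 among unmixed fibroblasts, 4 of them higher, with a median log2 ratio of 1.13.

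Genes of protein folding in the secretory pathway were higher in WT PNX. Of 15 measured genes of the unfolded protein response list (of 21), 8 were at least 1.5-fold higher and 1 was lower, with a median log2 ratio of 0.62, and 10 and 0 of 17 with a median of 0.67 among unmixed fibroblasts. The same 15 genes had a median of 0.30 in endothelial cells. Over all measured genes 14.5% were higher and 18.4% lower, and 33.6% and 17.4% among unmixed fibroblasts. Manf, a protein of the endoplasmic reticulum, stood at 271 CPM in WT PNX and 82.5 CPM in Sham, 3.28-fold higher (1.92 to 6.08). Chemokine and cytokine genes were few, with 5 of 6 measured (of 32) higher and 1 lower, and 6 of 7 higher among unmixed fibroblasts. Complement C3 stood at 1238 CPM in WT PNX and 466 CPM in Sham, 2.66-fold higher (2.12 to 3.38).

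Some genes that were lower in WT PNX than in Sham were fibroblast genes and others were endothelial. Gpx3, a secreted glutathione peroxidase (ENSMUSG00000018339, GRCm38 chromosome 11, 54902453 to 54910377, plus strand), stood at 547 CPM in 113 of 150 WT PNX fibroblasts and 2152 CPM in 30 of 35 Sham fibroblasts, 3.94-fold lower (3.44 to 4.50). In unmixed fibroblasts Gpx3 stood at 697 CPM in WT PNX and 3606 CPM in Sham, 5.18-fold lower (4.05 to 6.59), and endothelial cells held 15.4 CPM in WT PNX and 40.1 CPM in Sham. The PNX libraries were not alike in Gpx3, which over all fibroblasts stood at 2604 CPM in M3cKO PNX and 619 CPM in Foxo1cKO PNX. Inmt was 1.38-fold lower in WT PNX than in Sham (1.27 to 1.51), and 1.56-fold lower among unmixed fibroblasts (1.34 to 1.81). Mettl7a1, a lipid droplet methyltransferase-like protein, was 2.96-fold lower (2.44 to 3.56) and among unmixed fibroblasts 5.30-fold lower (3.68 to 7.6). Txnip, the thioredoxin-interacting protein, was 3.20-fold lower (2.63 to 3.90), and its endothelial levels were 388 CPM in WT PNX and 1029 CPM in Sham. Ecm1 and Angptl4 were 3.79-fold (2.59 to 5.50) and 7.63-fold lower (3.91 to 15.1), and both were at least 2-fold lower among unmixed fibroblasts. By contrast H2-Q6, H2-Q7, Cyp4b1 and Sh2d3c, at 3.79-fold to 5.62-fold lower over all fibroblasts, had between 0 and 16.7 CPM in unmixed fibroblasts of either library and are genes of the endothelial cells here, where Cyp4b1 stood at 348 CPM in WT PNX and 1105 CPM in Sham.

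Ranking within unmixed fibroblasts, a step chosen after the data were seen, named further genes of fibroblasts as lower. Selenbp1 stood at 108 CPM in WT PNX and 703 CPM in Sham, 6.48-fold lower (3.53 to 11.8). Prelp, a leucine-rich proteoglycan, stood at 759 CPM in WT PNX and 2689 CPM in Sham, 3.54-fold lower (2.71 to 4.59), with UMIs in 39 of 51 and 12 of 12 cells. Aldh1a1, a retinaldehyde dehydrogenase, stood at 279 CPM in WT PNX and 1008 CPM in Sham, 3.61-fold lower (2.30 to 5.55). Hsd11b1, the enzyme that regenerates active glucocorticoid, was 2.17-fold lower (1.51 to 3.07).

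Glucocorticoid response genes were lower in WT PNX than in Sham. Of 12 measured genes of that list (of 20), 0 were at least 1.5-fold higher and 8 were lower, with a median log2 ratio of −0.71, and 0 and 7 of 10 with a median of −1.04 among unmixed fibroblasts. The same 12 genes had a median of −0.30 in endothelial cells. Over all measured genes 14.5% were higher and 18.4% lower, and 33.6% and 17.4% among unmixed fibroblasts. Tsc22d3, which encodes the glucocorticoid-induced leucine zipper, stood at 101 CPM in WT PNX and 336 CPM in Sham, 3.33-fold lower (2.37 to 4.63), and in endothelial cells at 107 CPM in WT PNX and 246 CPM in Sham. The small heat shock protein gene Hspb1 stood at 208 CPM in WT PNX and 802 CPM in Sham, 3.86-fold lower (3.09 to 4.80). Of the FOXO list, 0 of 7 measured genes were higher and 3 were lower, Tsc22d3 among them.

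The second comparison sets M3cKO PNX against WT PNX. The labels name the M3 knockout as the difference between these libraries, which also differed in sex-linked transcripts, as given above. Neither group had a replicate library, so whether the knockout caused any of the differences below was not tested. Of 2146 measured genes, 219 (10.2%) were at least 2-fold higher and 367 (17.1%) were lower in M3cKO PNX, with a median log2 ratio of −0.12. Scaling moved this split: with TMM factors, which shifted all log2 ratios up by 0.20, 315 were higher and 294 lower, and with median-of-ratios factors, a shift of 0.27, 361 were higher and 274 lower. Among the lower genes 130 were more than 2 times as high in endothelial or leukocyte cells of WT PNX as in its fibroblasts, and 23.8% of M3cKO PNX fibroblasts carried Cdh5 or Pecam1, against 66% of WT PNX fibroblasts. Among unmixed fibroblasts 139 of 1974 genes (7.04%) were higher and 178 (9.02%) were lower, with a median of −0.07.

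Over all fibroblasts the matrix lists stood higher in M3cKO PNX, and among unmixed fibroblasts most of them did not. Interstitial collagens other than the 3 of the rule had 5 of 7 measured genes at least 1.5-fold higher and 1 lower over all fibroblasts, with a median log2 ratio of 0.74, beside 18.5% of all measured genes higher and 28.5% lower. Among unmixed fibroblasts 0 of 8 were higher and 1 was lower, with a median of −0.17, beside 14.8% and 20.2% of all measured genes. Elastic fibre genes without Mfap4 had 13 of 15 higher and 1 lower with a median of 0.79 over all fibroblasts, and 4 and 3 with a median of −0.03 among unmixed ones. Contractile genes had 8 of 15 higher with a median of 0.62, and 1 higher and 1 lower of 14 with a median of 0.02. Among fibroblasts with at most 5% mitochondrial UMIs, mixed ones included, the medians of these 3 lists, rule genes included, were −0.05, −0.08 and −0.80. That set held 13 fibroblasts in M3cKO PNX and 14 in WT PNX. Proteoglycan and matricellular genes without Dcn had 12 of 18 higher and 2 lower with a median of 1.00, and 10 and 6 of 24 with a median of 0.41. The lone collagen that was lower in both sets was Col8a1, a short-chain collagen, at 5.72 CPM from 2 UMIs in unmixed M3cKO PNX fibroblasts and 138 CPM in unmixed WT PNX fibroblasts, 24.1-fold lower (6.15 to 207).

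**Figure D4:**
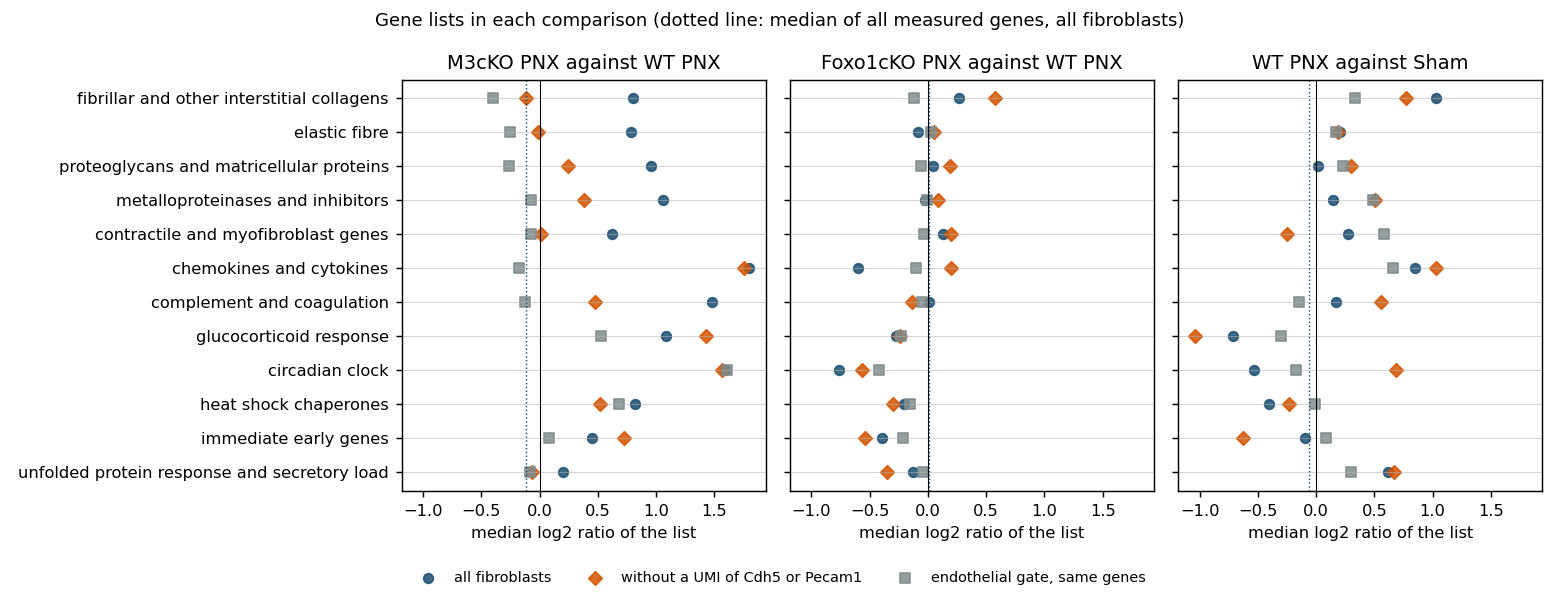
Median log2 ratio of 12 gene lists in each comparison, for all fibroblasts, for fibroblasts without a UMI of Cdh5 or Pecam1 and for the same genes in endothelial cells. In M3cKO PNX against WT PNX the collagen list, which includes 3 genes of the rule, stands at −0.12 in unmixed fibroblasts and 0.80 in all, while chemokines (1.76), glucocorticoid response (1.43) and clock genes (1.56) stay high, and in endothelium the clock genes stand at 1.61.

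The metallothionein genes Mt1 and Mt2 were higher in M3cKO PNX in both sets of fibroblasts. Mt1, a metallothionein that binds zinc and copper (ENSMUSG00000031765, GRCm38 chromosome 8, 94179082 to 94180327, plus strand), stood at 4600.5 CPM in 57 of 63 M3cKO PNX fibroblasts and 426 CPM in 37 of 150 WT PNX fibroblasts, 10.8-fold higher (9.77 to 12). Foxo1cKO PNX held 314 CPM and Sham 531 CPM of Mt1, so M3cKO PNX stood apart from all 3. In unmixed fibroblasts Mt1 stood at 5171 CPM in M3cKO PNX and 1126 CPM in WT PNX, 4.59-fold higher (4.04 to 5.24). Mt2, its neighbour in the genome, was 14.3-fold higher (11.6 to 17.7) and 5.87-fold higher among unmixed fibroblasts (4.55 to 7.67). Leukocytes of the same libraries held 702 CPM of Mt1 in M3cKO PNX and 95.1 CPM in WT PNX, whereas endothelial cells held 42.0 CPM in M3cKO PNX and 30.8 CPM in WT PNX.

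Secreted genes of inflammation were higher in M3cKO PNX. Of 15 measured chemokine and cytokine genes (of 32), 12 were at least 1.5-fold higher and 2 were lower, with a median log2 ratio of 1.80, and 13 of 16 were higher and 1 was lower among unmixed fibroblasts, with a median of 1.76. The same 15 genes had 3 higher and 7 lower in endothelial cells, with a median of −0.18. Over all measured genes of fibroblasts 18.5% were higher and 28.5% lower, and 14.8% and 20.2% among unmixed ones. Cxcl1, a neutrophil-attracting chemokine, stood at 1398 CPM in 31 M3cKO PNX fibroblasts and 222 CPM in 26 WT PNX fibroblasts, 6.30-fold higher (5.43 to 7.33), and 2.92-fold higher among unmixed fibroblasts (2.42 to 3.55). Leukocytes held 351 CPM of Cxcl1 in M3cKO PNX and 27.4 CPM in WT PNX. Some of these genes rested on few cells. Saa3, an acute-phase apolipoprotein (ENSMUSG00000040026, GRCm38 chromosome 7, 46711998 to 46715700, minus strand), stood at 1168 CPM in 14 of 63 M3cKO PNX fibroblasts and 13.2 CPM in 6 of 150 WT PNX fibroblasts, a ratio of 88.4 (52.3 to 163), with 47.7% of its M3cKO PNX UMIs in 1 cell. The interferon-induced chemokine gene Cxcl10 stood at 344 CPM in M3cKO PNX and 5.66 CPM in WT PNX, with 49.7% of the M3cKO PNX UMIs in 1 cell. Lcn2, an iron-siderophore binding protein, stood at 339.7 CPM in M3cKO PNX and 15.1 CPM in WT PNX, with 35.8% in 1 cell.

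Complement and protease genes stood with them. C4b, a complement component, stood at 2229 CPM in 54 M3cKO PNX fibroblasts and 383 CPM in 37 WT PNX fibroblasts, 5.81-fold higher (5.19 to 6.53), and 2.58-fold higher among unmixed fibroblasts (2.25 to 2.97). The complement and coagulation list had 10 of 12 measured genes higher and 1 lower over all fibroblasts, and 5 and 3 of 14 among unmixed ones. Over all measured genes 18.5% were higher and 28.5% lower, and 14.8% and 20.2% among unmixed fibroblasts. Mmp3, the matrix protease stromelysin, stood at 418 CPM in 21 M3cKO PNX fibroblasts and 18.9 CPM in 10 WT PNX fibroblasts, 22.2-fold higher (14 to 37), with no UMI in endothelium of any library. Among unmixed fibroblasts Mmp3 was 8.58-fold higher (5.15 to 15.3). Has1, a hyaluronan synthase, was 11.0-fold higher (7.12 to 17.6) and Angptl4, a lipoprotein lipase inhibitor, 13.5-fold higher (8.19 to 23.6), and both were at least 2-fold higher among unmixed fibroblasts. Upk1b, a uroplakin also made by mesothelium, was 8.78-fold higher over all fibroblasts (5.20 to 15.6) and 1.90-fold higher among unmixed ones (0.984 to 3.90), the only 1 of the 10 named higher genes that was not 2-fold apart there. Cells with at least 2 UMIs of the mesothelial genes Msln, Wt1, Upk3b and Lrrn4 were 3 of 63 in M3cKO PNX and 2 of 150 in WT PNX.

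**Figure D5:**
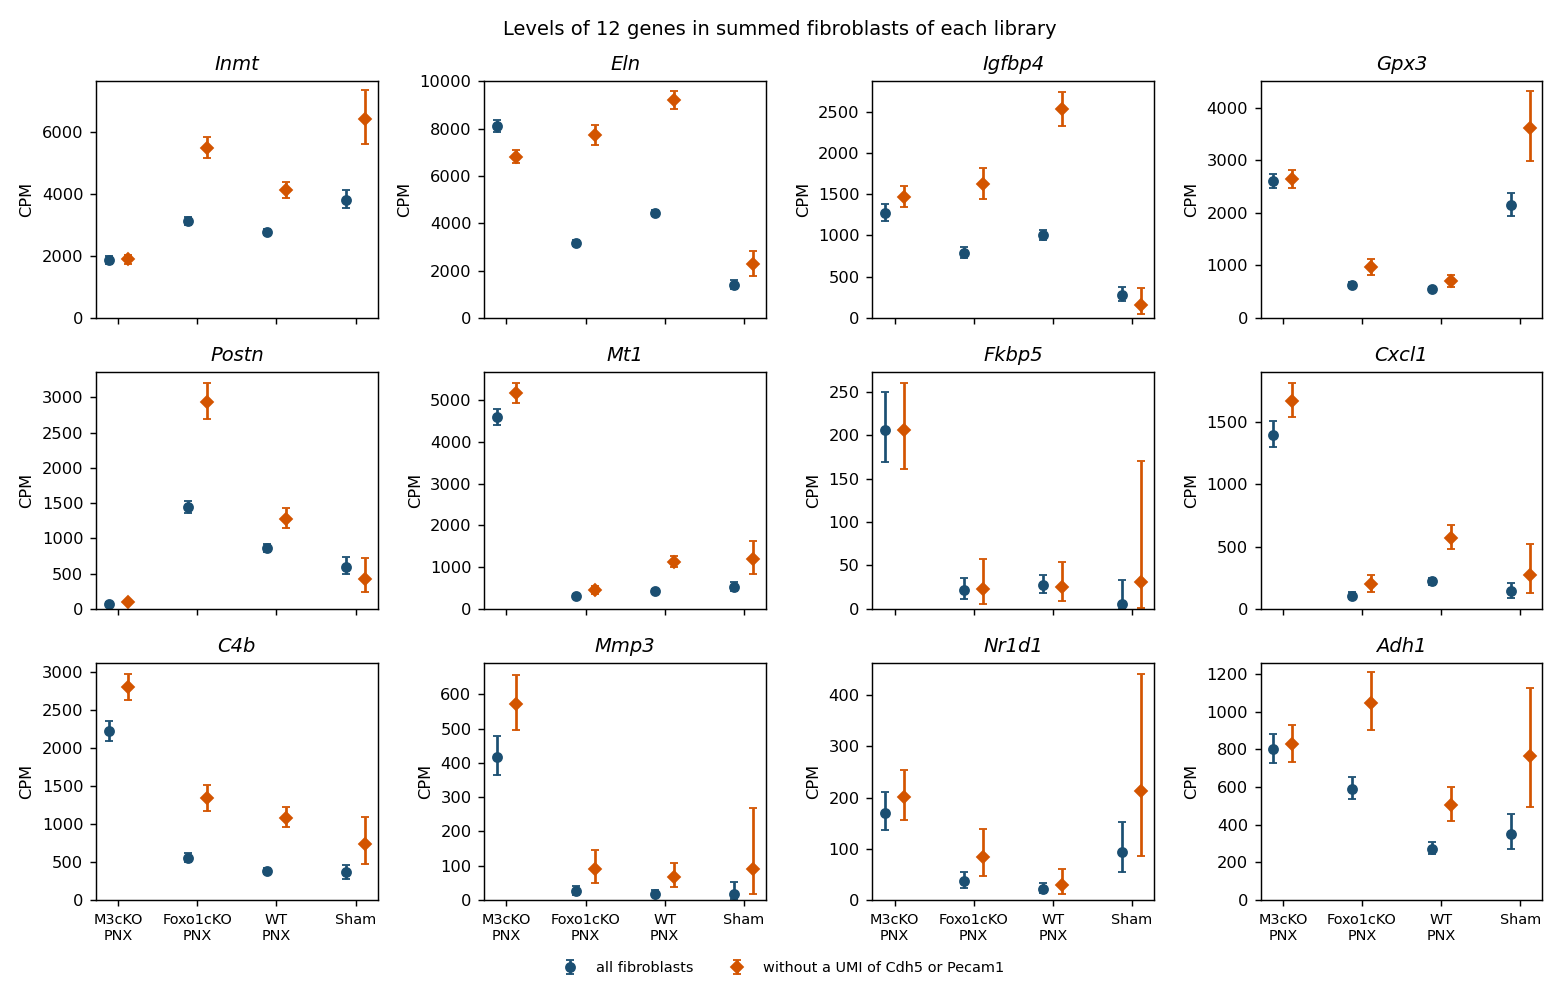
Level of 12 genes (CPM, linear axes from 0) in the summed fibroblasts of each library, for all fibroblasts and for those without a UMI of Cdh5 or Pecam1, with exact Poisson 95% intervals for counting error. Mt1, Fkbp5, Cxcl1, C4b and Mmp3 stand highest in M3cKO PNX in both sets, Postn is lowest there (76.6 CPM), Eln and Igfbp4 are lowest in Sham, and Gpx3 is low in Foxo1cKO PNX and WT PNX.

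Stress, glucocorticoid and clock genes were higher in M3cKO PNX, and in endothelial cells of that library as well. Of 15 measured glucocorticoid response genes (of 20), 12 were at least 1.5-fold higher and 0 lower, with a median log2 ratio of 1.08, and 13 and 0 of 15 with a median of 1.43 among unmixed fibroblasts. The same 15 genes had 10 higher and 0 lower in endothelium, with a median of 0.53. Over all measured genes of fibroblasts 18.5% were higher and 28.5% lower, and 14.8% and 20.2% among unmixed ones. Fkbp5, a glucocorticoid-induced chaperone of the steroid receptor complex, stood in unmixed fibroblasts at 206 CPM in M3cKO PNX and 25 CPM in WT PNX, 8.23-fold higher (3.60 to 23.2), and in endothelium at 81.2 CPM in M3cKO PNX and 21.8 CPM in WT PNX. Tsc22d3 stood at 328 CPM in M3cKO PNX and 101 CPM in WT PNX over all fibroblasts, 3.25-fold higher (2.53 to 4.18), beside 336 CPM in Sham. Heat shock chaperones had 11 of 17 measured genes higher and 0 lower with a median of 0.82, and 8 and 0 of 18 with a median of 0.52 among unmixed fibroblasts. In endothelium 10 of the 17 were higher, with a median of 0.68. Hspa1b, an inducible HSP70, stood at 809 CPM in M3cKO PNX and 150.1 CPM in WT PNX, 5.39-fold higher (4.48 to 6.51), and in endothelium at 1384 CPM in M3cKO PNX and 142 CPM in WT PNX.

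Clock genes were higher in M3cKO PNX in fibroblasts and in endothelium. Of 6 measured genes of the circadian list (of 20), 5 were higher and 0 lower, with a median log2 ratio of 1.59 over all and 1.56 among unmixed fibroblasts, and in endothelium all 6 were higher, with a median of 1.61. Over all measured genes of fibroblasts 18.5% were higher and 28.5% lower. Dbp, a clock-output transcription factor, stood at 124 CPM in 27 M3cKO PNX fibroblasts and at 1.89 CPM from 2 UMIs in WT PNX, a ratio of 65.5 (17.4 to 553). Nr1d1, the clock repressor REV-ERB alpha, stood at 171 CPM in M3cKO PNX and 21.7 CPM in WT PNX, 7.87-fold higher (4.92 to 13.1), and at 37.2 CPM in Foxo1cKO PNX and 94.3 CPM in Sham. Its endothelial levels were 148 CPM in M3cKO PNX and 10.1 CPM in WT PNX.

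Genes of immediate early responses were higher on balance in M3cKO PNX, with 11 of 25 measured genes at least 1.5-fold higher and 2 lower and a median log2 ratio of 0.45. Among unmixed fibroblasts 14 of 26 were higher and 1 was lower, with a median of 0.72. Over all measured genes 18.5% were higher and 28.5% lower, and 14.8% and 20.2% among unmixed fibroblasts. Nr4a3, an orphan nuclear receptor induced within the first hours of stimulation, stood at 703 CPM in 31 M3cKO PNX fibroblasts and 56.6 CPM in 19 WT PNX fibroblasts, 12.4-fold higher (9.42 to 16.6), and 5.81-fold higher among unmixed ones (4.15 to 8.37). Ifrd1, a co-regulator of transcription, was 5.86-fold higher (5.11 to 6.73) and 4.98-fold higher among unmixed ones (3.95 to 6.34). In leukocytes Nr4a3 stood at 576 CPM in M3cKO PNX and 117 CPM in WT PNX, and Ifrd1 at 1407 CPM in M3cKO PNX and 459 CPM in WT PNX.

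Postn was among the genes that were lower in M3cKO PNX. Postn, which encodes the matricellular protein periostin (ENSMUSG00000027750, GRCm38 chromosome 3, 54361109 to 54391037, plus strand), stood at 76.6 CPM in 8 of 63 M3cKO PNX fibroblasts and 860.0 CPM in 58 of 150 WT PNX fibroblasts, 11.2-fold lower (8.15 to 15.9). In unmixed fibroblasts Postn stood at 94.4 CPM in M3cKO PNX and 1281 CPM in WT PNX, 13.6-fold lower (9.45 to 20.1), and the 2 other libraries held 2936 CPM (Foxo1cKO PNX, with 80.0% of the UMIs in 1 cell) and 428 CPM (Sham, with 71.4% in 1 cell). Higd1b, a gene of capillary pericytes, and Gap43, a growth-cone protein best known from neurons, had no UMI in M3cKO PNX and stood at 109.5 and 100.1 CPM in WT PNX, at least 18.6-fold and 17.0-fold lower against a floor of 3 UMIs over the M3cKO PNX fibroblasts. Pcdh18, a protocadherin, stood at 3.93 CPM from 2 UMIs in M3cKO PNX and 189 CPM in WT PNX, a fold of 48.1 (13.1 to 399.7), and Lipg, endothelial lipase, at 5.89 CPM from 3 UMIs in M3cKO PNX and 159 CPM in WT PNX, a fold of 26.9 (9.06 to 132). Higd1b, Pcdh18, Lipg, Kcnk3 and Postn were lower beside the smaller pericyte share given above (4.76% of fibroblasts in M3cKO PNX, 23.3% in WT PNX), whose part in these values was not tested.

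Other lower genes are known from endothelium or epithelium. Cd36, a fatty acid receptor of capillary endothelium, stood at 126 CPM in M3cKO PNX and 1185 CPM in WT PNX over all fibroblasts, at 2.86 CPM (1 UMI) in M3cKO PNX and 62.6 CPM in WT PNX in unmixed ones, and at 2119 CPM in M3cKO PNX and 2258 CPM in WT PNX in endothelial cells. Ehd4 stood likewise at 51.1 CPM in M3cKO PNX and 593 CPM in WT PNX, beside endothelial levels of 813 CPM in M3cKO PNX and 1049.5 CPM in WT PNX. Cldn18, an alveolar epithelial claudin, had no UMI in M3cKO PNX, stood at 133 CPM in WT PNX and had 1 UMI in unmixed WT PNX fibroblasts. Among unmixed fibroblasts the ranking chosen after the data were seen named Spon2, the matrix protein spondin 2, at 65.8 CPM in M3cKO PNX and 496 CPM in WT PNX, 7.54-fold lower (4.80 to 12.4). Aspn, the proteoglycan asporin of myofibroblasts, stood at 51.5 CPM in M3cKO PNX and 234 CPM in WT PNX, 4.54-fold lower (2.63 to 8.20), and the potassium channel gene Kcnk3 at 31.5 CPM in M3cKO PNX and 225 CPM in WT PNX, 7.16-fold lower (3.7 to 15.2). Of 5 measured hedgehog genes, 0 were higher and 4 were lower among unmixed fibroblasts, with a median log2 ratio of −0.67, whereas over all fibroblasts 0 of 3 were higher or lower at 1.5-fold. Over all measured genes 14.8% were higher and 20.2% lower among unmixed fibroblasts, and 18.5% and 28.5% over all fibroblasts.

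The third comparison sets Foxo1cKO PNX against WT PNX. The targeted gene was looked at first. Foxo1, a forkhead transcription factor (ENSMUSG00000044167, GRCm38 chromosome 3, 52268336 to 52353221, plus strand), stood at 51.4 CPM in 28 of 104 Foxo1cKO PNX fibroblasts and 115 CPM in 63 of 150 WT PNX fibroblasts, 2.24-fold lower (1.53 to 3.34), beside 78.5 CPM in M3cKO PNX and 118 CPM in Sham. In unmixed fibroblasts it stood at 89.7 CPM (16 UMIs) in Foxo1cKO PNX and 58.4 CPM (14 UMIs) in WT PNX, a ratio of 1.54 with an interval of 0.702 to 3.40. In the fibroblasts with endothelial UMIs it stood at 38.4 CPM in Foxo1cKO PNX and 132 CPM in WT PNX, and in endothelial cells at 64.7 CPM in Foxo1cKO PNX and 205 CPM in WT PNX. The lower Foxo1 over all fibroblasts thus lay in the mixed barcodes, and at this depth no difference was detectable in unmixed fibroblasts. Rhoj, a small GTPase named in the study's title, stood at 181 CPM in Foxo1cKO PNX and 203 CPM in WT PNX over all fibroblasts, 1.12-fold lower (0.894 to 1.40), and at 163 CPM in Foxo1cKO PNX and 108 CPM in WT PNX among unmixed ones, a ratio of 1.5 (0.852 to 2.65).

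Summed over all fibroblasts, Foxo1cKO PNX and WT PNX were close to each other. Fibroblasts with Cdh5 or Pecam1 held 521320 of the 699774 UMIs in Foxo1cKO PNX and 819537 of the 1059276 in WT PNX. Of 2064 measured genes, 20 (0.969%) were at least 2-fold higher and 36 (1.74%) were lower in Foxo1cKO PNX, with a median log2 ratio of 0.01. Among unmixed fibroblasts 90 of 1965 (4.58%) were higher and 110 (5.6%) were lower, over fewer UMIs. At most 5% mitochondrial UMIs gave 58 higher and 211 lower genes, from 9 and 14 fibroblasts of Foxo1cKO PNX and WT PNX. The shares of fibroblasts with Cdh5 or Pecam1 were also close here, 63.5% in Foxo1cKO PNX and 66% in WT PNX. The rule for named genes was met by 3 genes that were higher and by 10 that were lower.

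Adh1, an alcohol dehydrogenase that also turns retinol into retinaldehyde (ENSMUSG00000074207, GRCm38 chromosome 3, 138260991 to 138290698, plus strand), was the higher gene with the firmest value. It stood at 592 CPM in 57 Foxo1cKO PNX fibroblasts and 273 CPM in 90 WT PNX fibroblasts, 2.17-fold higher (1.86 to 2.53). In unmixed fibroblasts Adh1 stood at 1048 CPM in Foxo1cKO PNX and 505 CPM in WT PNX, 2.08-fold higher (1.64 to 2.63), beside 827 CPM in M3cKO PNX and 764 CPM in Sham, so WT PNX held the lowest level of the 4 libraries. Ltbp2, a latent TGF-beta binding protein of elastic fibres, stood at 259 CPM in Foxo1cKO PNX and 121 CPM in WT PNX, 2.14-fold higher (1.70 to 2.71). Apln, the ligand apelin of endothelial tip cells, was 2.25-fold higher over all fibroblasts (1.68 to 3.04), but had 1 UMI in unmixed fibroblasts of either library.

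The lower genes included immediate early genes and stress genes. Fosb, an AP-1 subunit, stood at 280.1 CPM in 54 Foxo1cKO PNX fibroblasts and 740.1 CPM in 89 WT PNX fibroblasts, 2.64-fold lower (2.26 to 3.11), and 1.97-fold lower among unmixed ones (1.52 to 2.57). In endothelial cells Fosb stood at 181 CPM in Foxo1cKO PNX and 399 CPM in WT PNX. Of 21 measured immediate early genes (of 31), 0 were at least 1.5-fold higher and 2 were lower, with a median log2 ratio of −0.40, beside 3.39% of all measured genes higher and 4.02% lower. Among unmixed fibroblasts 0 of 23 were higher and 10 were lower, with a median of −0.54, beside 11.5% and 14.4%. Ppp1r15a, which directs the dephosphorylation of an initiation factor under stress, was 2.16-fold lower (1.69 to 2.79) and Dnajb4, an HSP40 co-chaperone, 2.22-fold lower (1.49 to 3.38), and both were at least 2-fold lower among unmixed fibroblasts. Cxcl1 stood at 106 CPM in Foxo1cKO PNX and 222 CPM in WT PNX, 2.10-fold lower (1.61 to 2.76) and 2.91-fold lower among unmixed fibroblasts (2.00 to 4.35), but among fibroblasts with at most 5% mitochondrial UMIs the log2 ratio of Cxcl1 was 0.11. That setting left 9 fibroblasts in Foxo1cKO PNX and 14 in WT PNX. Tubb6, a beta-tubulin, was 2.35-fold lower (1.65 to 3.41) and 2.61-fold lower among unmixed fibroblasts (1.52 to 4.68).

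Nrgn and Ppbp, genes of platelets, stood at 60.0 and 35.7 CPM in Foxo1cKO PNX and at 282 and 152 CPM in WT PNX, 4.70-fold (3.40 to 6.66) and 4.25-fold lower (2.78 to 6.77), and most of their WT PNX UMIs in unmixed cells lay in 1 cell each (54.9% and 81.8%). Sulf1, Jam2 and Fbln2 were 3.13-fold (1.98 to 5.15), 2.44-fold (1.80 to 3.38) and 2.15-fold lower (1.68 to 2.78) over all fibroblasts. Among unmixed fibroblasts Sulf1 was 1.34-fold lower (0.586 to 3.25), Jam2 1.02-fold lower (0.436 to 2.44), and Fbln2 had a ratio of 1.03 (0.702 to 1.5), so none of these 3 was apart there.

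Several matrix genes of unmixed Foxo1cKO PNX fibroblasts had most of their UMIs in 1 cell. Interstitial collagens other than the 3 of the rule had 0 of 7 measured genes at least 1.5-fold higher and 1 lower over all fibroblasts, with a median log2 ratio of 0.27, and 6 of 10 higher and 1 lower among unmixed fibroblasts, with a median of 0.59. The deepest unmixed Foxo1cKO PNX fibroblast held 72.1% of the UMIs of Col5a1, 63.5% of Fn1 (fibronectin) and 80.0% of Postn in that set. The comparison was not made without that cell. Fn1 stood at 2051 CPM in Foxo1cKO PNX and 1412 CPM in WT PNX over all fibroblasts, and at 6198 CPM in Foxo1cKO PNX and 2031 CPM in WT PNX among unmixed ones. Col8a1 was the collagen that was lower, at 17.1 CPM in Foxo1cKO PNX and 107 CPM in WT PNX, with 46.0% of the WT PNX UMIs in 1 cell. Acta2, smooth muscle actin, stood at 1483 CPM in 27 Foxo1cKO PNX fibroblasts and 708 CPM in 47 WT PNX fibroblasts, 2.10-fold higher (1.91 to 2.30), with 29.8% of the Foxo1cKO PNX UMIs in 1 cell, and 1.38-fold higher among unmixed fibroblasts (1.22 to 1.56).

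The remaining gene lists are given as medians over all fibroblasts and, second, over unmixed ones. In Foxo1cKO PNX against WT PNX the elastic fibre list stood at −0.09 and 0.06, the unfolded protein response list at −0.13 and −0.35, the glucocorticoid response list at −0.27 and −0.24, and the interferon response list at 0.24 and 0.35. In M3cKO PNX against WT PNX the oxidative phosphorylation list stood at −0.25 and −0.15, the TGF-beta and BMP list at 0.09 and −0.03, the Wnt list at 0.12 and −0.19, and the basement membrane list at 0.33 and −0.14. In WT PNX against Sham the basement membrane list stood at −0.01 and −0.41, the Wnt list at −0.18 and 0.08, the TGF-beta and BMP list at −0.15 and 0.51, and the oxidative phosphorylation list at 0.26 and 0.22. The TGF-beta and BMP list differed in sign between the sets in WT PNX against Sham, with 2 of 15 genes higher and 3 lower over all fibroblasts and 8 of 16 higher and 0 lower among unmixed ones. The unmixed count leans to higher genes by the limit for measured genes, as given above. Over all measured genes 14.5% were higher and 18.4% lower, and 33.6% and 17.4% among unmixed fibroblasts.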

How the data were processed

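Single-cell RNA sequencing was made of lung cells from 4 groups of mice, 1 library each. Per the labels' protocols, lungs were digested with collagenase at 2 mg/mL for 40 min, CD45 beads removed leukocytes, CD31 beads captured endothelium, and sequencing was on a NovaSeq 6000, and Cell Ranger 2.1.1 mapped the reads to mm10. The header of the matrices names software version 3.0.0, and the submitters' processing notes name R 3.4.4. The authors deposited UMI counts per gene and cell, not normalized, with gene and barcode lists of other, non-numeric content.

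Members and gene lists were chosen with earlier results of these data known. Counts of the fibroblasts of a library were summed and divided by their total (CPM). A gene was measured at 100 CPM and 15 UMIs in either library and apart at 2-fold, gene lists were counted at 1.5-fold, and log2 ratios had 10 CPM added. With 1 library a group no test was run. Shares have exact Clopper-Pearson intervals, levels exact Poisson intervals and ratios exact conditional binomial intervals, all at 95% and for counting error only. The floor of a count of 0 was 3 UMIs.

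Named were the 10 genes a direction whose interval lay farthest from 1, with a UMI in 10% of fibroblasts of the higher library, no cell above 25% of UMIs, and no level more than 2 times as high in its endothelial or leukocyte cells. Mitochondrial, ribosomal, hemoglobin, immunoglobulin, sex-linked, predicted and rule genes were left out. Added were up to 3 measured members of each of 30 lists with the highest absolute log2 ratio, the 5 rule genes, Inmt, Cdh5, Pecam1, Rhoj and Foxo1. Counts of the collagen, elastic fibre and proteoglycan lists without the rule genes were added after the data were seen. Levels of genes that share near-identical copies, such as H2-Q6 and H2-Q7, are uncertain, since counting may split their reads.

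No doublet caller was used for the values reported. As an alternative, removing the highest Scrublet scores took out 34 of 352 fibroblasts, 21 of them with Cdh5 or Pecam1. Other alternatives were TMM factors (edgeR), median-of-ratios size factors (DESeq2), no filter or one of 300 CPM and 30 UMIs, 1 CPM as the pseudocount, at most 5% mitochondrial UMIs, at least 1000 genes, 4 or 16 UMIs of the 5 genes, mean CPM per cell, alveolar fibroblasts only and thinning to 2000 UMIs. The ranking within unmixed fibroblasts and their alveolar split were added after the data were seen. Gene positions are from GENCODE for GRCm38. The ratio and interval code was tested on simulated data. Tools were Python 3.11.15, numpy 2.4.6, scipy 1.17.1, pandas 2.3.3, scanpy 1.11.5, anndata 0.12.19, matplotlib 3.10.9, R 4.3.3, edgeR 4.0.16 and DESeq2 1.42.0. Some results are not reported here.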

Additional observations from a re-analysis of the deposited data

Results flagged for a closer look

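There were 2 results with opposite signs in unmixed fibroblasts and in endothelial cells of the same libraries, and the difference between the cell types was not tested. Adh1, in Foxo1cKO PNX against WT PNX, had a log2 ratio of 1.04 in unmixed fibroblasts and −1.16 in endothelial cells, where it stood at 6.88 CPM in Foxo1cKO PNX and 27.8 CPM in WT PNX. The interferon response list, in WT PNX against Sham, had a median log2 ratio of 0.64 over its 5 genes measured in unmixed fibroblasts and −0.21 over the same 5 genes in endothelial cells. Weaker genes could be measured in that unmixed pair only through WT PNX, as given above.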

How the results depend on the processing

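No paired analysis was possible because each group has 1 library, and for the same reason no replicate could be left out. Of 978 values of single genes and lists, 864 stayed on the same side of a size limit, 90 crossed it and 24 changed sign. The limit was an absolute log2 ratio of 1 for genes and an absolute median of 0.5 for lists, and counting error was not weighed. A change of sign was counted only for genes and lists past the limit of the main setting. Of 143 counts and shares, 86 stayed within 1.5 times (counts) or within their interval (shares). Except where an alternative's own construction shows it (other cells, other genes measured), the cause was not tested. Few cells limit some settings. The unmixed Sham set held 12 cells. At most 5% mitochondrial UMIs left 13, 9, 14 and 4 fibroblasts in M3cKO PNX, Foxo1cKO PNX, WT PNX and Sham.

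In WT PNX against Sham, 129 genes were higher, and 4874 without a filter, 31 at 300 CPM and 30 UMIs, 407 at 5% mitochondrial UMIs, 223 with 16 UMIs of the rule genes and 362 without Cdh5 or Pecam1. There were 143 lower, against 1888 without a filter and 43 at 300 CPM. Lists with a median beyond 0.5 numbered 6, against 14 at 5%, 11 without Cdh5 or Pecam1 and 3 by mean CPM per cell. Signs changed for Cyp4b1 (2.17 at 5%, 1.17 without Cdh5 or Pecam1), H2-Q7 (1.11 and 0.88) and Sh2d3c (1.42 without).

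In M3cKO PNX against WT PNX, 219 were higher, and 361 by median of ratios, 1968 without a filter, 100 at 300 CPM, 138 at 5% and 139 without Cdh5 or Pecam1. There were 367 lower, and 4684, 101, 216 and 178 under the last 4 of these. Lists numbered 16, against 8 at 5% and 6 without Cdh5 or Pecam1. Medians changed sign for collagens (−0.048 at 5%, −0.12 without Cdh5 or Pecam1), elastic fibre (−0.081 and −0.0095), contractile genes (−0.80 at 5%), IGF (−0.26 at 5%), PDGF and FGF receptors (0.41 without), MHC class I (0.43 at 5%, 0.37 without) and growth factors (−0.10 with no filter, −0.65 at 300 CPM, −0.71 at 5%, −0.019 without Cdh5 or Pecam1, −0.034 in alveolar fibroblasts only).

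In Foxo1cKO PNX against WT PNX, 20 were higher, and 1533 without a filter, 4 at 300 CPM, 58 at 5%, 90 without Cdh5 or Pecam1 and 13 in alveolar fibroblasts only. There were 36 lower, and 2412, 7, 211 and 110 under the first 4. Lists numbered 1, against 6 at 5%, 3 without Cdh5 or Pecam1, and 0 at 300 CPM, with 16 UMIs, by mean CPM per cell and in alveolar fibroblasts only. Signs changed for chemokines (0.20 without Cdh5 or Pecam1), Fbln2 (0.038 without), Cxcl1 (0.11 at 5%) and Foxo1 (0.23 at 5%, 0.54 without).

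The share of fibroblasts in M3cKO PNX was 1.62% at 1000 genes, 1.58% thinned and 0.866% without Cdh5 or Pecam1. In Foxo1cKO PNX it was 0.746% at 5% mitochondrial UMIs, 1.28% with 16 UMIs and 0.588% without. In WT PNX it was 1.26%, 1.84% and 0.797% under those 3 and 2.77% with 4 UMIs. In Sham it was 0.344%, 0.320%, 0.226% and 0.978%. The alveolar share without Cdh5 or Pecam1 was 52.9% in WT PNX and 58.3% in Sham. The mitotic share at 1 UMI was 15.9% in M3cKO PNX, 13.5% in Foxo1cKO PNX and 24.7% in WT PNX, and thinned it was 0% in M3cKO PNX and 7.75% in WT PNX.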
